A study of Mus musculus with 10 samples.

Results

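Mucin O-glycosylation was followed through 10 listed genes of 18398 in a table of mouse colon gene expression: Galnt3, Galnt12, C1galt1, C1galt1c1, B3gnt6, Gcnt3, St6galnac1, St3gal4, Fut2 and B4galnt2. They were chosen by name for their roles in starting, extending, fucosylating and sialylating O-glycans, with earlier results of these data known. The table holds 5 libraries labelled pro-inflammatory diet and 5 labelled normal diet, all from wild-type (WT) colon, and the comparison asks how the diet changes colon gene expression. Strain, age, sex, the make-up of the diets and any induction of colitis are not given in the labels used here. Nothing in the labels ties the 5 libraries of a diet to 5 separate animals, so the p-values measure only the spread between these libraries, which may be technical. The unit is FPKM, fragments scaled to the length of the gene model and to the total of the library, on a linear scale unless log2 is stated.

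O-glycans cover the mucins of the colon, above all Muc2, the gel-forming mucin that goblet cells secrete. Polypeptide GalNAc transferases attach the sugar N-acetylgalactosamine to serine or threonine. C1galt1 then adds galactose (core 1), or B3gnt6 adds N-acetylglucosamine (core 3), and Gcnt3 puts a branch on either core. Fut2, the sialyltransferases and B4galnt2 cap the chains with fucose, sialic acid and N-acetylgalactosamine. Mice without core 1 or core 3 synthesis in the intestine have a weakened mucus layer and are prone to colitis.

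No difference between the diets passed the test for any of these genes. Pro-inflammatory diet libraries 2 and 5 stood furthest out: both lay above each of the other 8 libraries for B4galnt2, Gcnt3, B3gnt6, Galnt12, C1galt1c1, Fut2 and Galnt3. B4galnt2 averaged 166 ± 139 FPKM on the pro-inflammatory diet and 70.5 ± 11.7 FPKM on the normal diet (SD, n = 5 each). Without these libraries its pro-inflammatory mean was 66.7 ± 13.6 FPKM (SD, n = 3). St3gal4 had its lowest pro-inflammatory values in this pair, and St6galnac1 was at the limit of detection in every library.

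The same pair of libraries stood apart in genes that mark position along the colon. Hoxb13, a homeobox gene of the distal colon, was at 0.417 FPKM in pro-inflammatory diet library 2 and 20.9 FPKM in library 5, against 211 to 341 FPKM in the other 8. Hoxd13 was at 0.0222 and 0.293 FPKM in this pair, against 16.5 to 47.3 FPKM in the other 8. Cyp2c55, listed here as a proximal colon gene, was at 403 and 291 FPKM in the pair and at 23.5 to 114 FPKM in the others. Normal diet libraries 1, 2 and 3 stood apart in Dbp, a clock-controlled transcription factor, at 1.79 to 6.69 FPKM against 12.4 to 54.3 FPKM in the other 7 libraries. Both sets of libraries differed in this way from libraries of their own diet. In the difference between the diets, colon position, clock state and diet cannot be told apart. Log2 fold changes and ratio differences are therefore given also without pro-inflammatory diet libraries 2 and 5.

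Epcam, a defining epithelial gene, was at 663 to 805 FPKM on the pro-inflammatory diet and 691 to 856 FPKM on the normal diet. The summed FPKM of 14 goblet cell genes ran from 10318 to 12871 against 9575 to 12044. Single goblet cell genes went different ways in pro-inflammatory libraries 2 and 5: Retnlb was at 389 and 693 FPKM, against at most 76.1 FPKM in the other 8, and Tff3 at 917 and 888 FPKM, against at least 1219 FPKM. Depth was 15652783 to 18341956 reads on genes per library, recovered from the steps of the FPKM values. The labels give colon tissue without its segment. Since the tissue was not split into cell types, fewer cells of a type and less RNA per cell cannot be told apart.

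In order of mean FPKM over the 10 libraries, B4galnt2 came at 118, followed by Fut2 at 65.2, C1galt1 at 55.9, Galnt12 at 42.5, C1galt1c1 at 39.0 and Gcnt3 at 36.2. St3gal4 at 22.3 and Galnt3 at 22.1 followed, then B3gnt6 at 7.67 and St6galnac1 at 0.0247 FPKM. B4galnt2 lay above Fut2 in 9 libraries, Fut2 above C1galt1 in 9, and C1galt1 above Galnt12 in 9. Galnt12 exceeded C1galt1c1 in 7 libraries, C1galt1c1 exceeded Gcnt3 in 8, Gcnt3 exceeded St3gal4 in 5 and St3gal4 exceeded Galnt3 in 6, so these neighbours were not separated beyond their spread. Galnt3 was above B3gnt6, and B3gnt6 above St6galnac1, in all 10. The place of St3gal4 rests on a gene model whose implied length was 14881 bases, against 2923 bases of exons in the GENCODE annotation, and a shorter model would place it higher. For B4galnt2 the lengths were 4082 and 1722 bases, for C1galt1 2068 and 6092, and for Fut2 3111 and 5431. Ratios of 1 gene between libraries do not depend on these lengths.

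Start-site sequences are shown for B4galnt2, the member that stood furthest out in the pair of libraries. They are shown also for C1galt1 and St3gal4, the tested members for which the pair did not lie above each of the other 8. C1galt1 was still high in the pair, at 66.5 and 69.7 FPKM, below normal diet library 3 at 70.8 FPKM. Each sequence runs from 250 bases before to 50 bases after the RefSeq start on GRCm38.p6, the same coordinates as mm10. Of the 10 genes, 4 had an entry. Capitals mark TTTAT, the core of sites bound by Cdx and posterior Hox homeodomain proteins, and GGGCGG, the GC box, each on either strand (ATAAA and CCGCCC on the strand shown are matches to the opposite strand).
B4galnt2, chr11:95914822-95915121, minus strand: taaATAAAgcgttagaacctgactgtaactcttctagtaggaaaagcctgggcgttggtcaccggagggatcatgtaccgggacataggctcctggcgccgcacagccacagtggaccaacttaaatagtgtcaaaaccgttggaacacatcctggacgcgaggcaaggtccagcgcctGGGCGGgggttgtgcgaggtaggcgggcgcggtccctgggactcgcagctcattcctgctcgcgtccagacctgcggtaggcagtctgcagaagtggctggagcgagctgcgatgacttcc
C1galt1, chr6:7844974-7845273, plus strand: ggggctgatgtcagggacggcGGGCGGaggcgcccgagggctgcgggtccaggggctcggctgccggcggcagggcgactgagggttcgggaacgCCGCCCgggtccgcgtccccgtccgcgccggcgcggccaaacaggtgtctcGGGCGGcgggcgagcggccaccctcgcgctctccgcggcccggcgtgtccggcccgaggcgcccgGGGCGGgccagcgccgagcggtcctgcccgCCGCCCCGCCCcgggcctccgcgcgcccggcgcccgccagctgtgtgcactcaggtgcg
St3gal4, chr9:35116815-35117114, minus strand: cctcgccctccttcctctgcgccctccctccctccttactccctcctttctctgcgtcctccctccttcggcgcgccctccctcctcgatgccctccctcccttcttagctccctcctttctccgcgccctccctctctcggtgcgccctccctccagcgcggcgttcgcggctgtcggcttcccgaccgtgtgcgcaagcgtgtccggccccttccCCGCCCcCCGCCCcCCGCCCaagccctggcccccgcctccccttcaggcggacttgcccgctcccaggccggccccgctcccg
The B4galnt2 window held 1 TTTAT and 1 GGGCGG, with 59% G and C. C1galt1 had 0 TTTAT and 6 GGGCGG at 82.7% G and C, and St3gal4 had 0 and 3 at 74%. Galnt3, whose sequence is not printed, had 0 and 3 at 76.7%. TTTAT occurs in 40.0% and GGGCGG in 35.7% of the 32851 windows of this length, and their median G and C content is 52.7%. The matches are descriptions of these letters, not binding sites.

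Galnt3 and Galnt12 each encode a transferase that attaches the GalNAc sugar. Galnt3 (chr2:66082766-66124994, minus strand, GRCm38) had 15.2, 33.1, 22.7, 16.9 and 28.3 FPKM in pro-inflammatory diet libraries 1 to 5. Its normal diet libraries 1 to 5 had 20.9, 23.4, 27.2, 17.5 and 16.0 FPKM. The diets overlapped, with libraries 2 and 5 of the pro-inflammatory diet just above library 3 of the normal diet. The log2 fold change was 0.11 (SE 0.22, limma adjusted p = 0.809), and -0.19 without pro-inflammatory diet libraries 2 and 5.

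Galnt12 (chr4:47091909-47123070, plus strand) had 30.3, 76.9, 38.4, 31.8 and 69.1 FPKM on the pro-inflammatory diet, against 42.1, 35.1, 43.0, 28.8 and 29.8 FPKM on the normal diet. Libraries 2 and 5 of the pro-inflammatory diet were at least 1.61 times the highest of the other 8, and the other 3 lay inside the normal range. Its log2 fold change of 0.36 (SE 0.27, adjusted p = 0.471) became -0.080 without that pair. The coefficient of variation of Galnt12 was 44.6% on the pro-inflammatory diet and 18.6% on the normal diet. That of Galnt3 was 32.5% on the pro-inflammatory diet and 21.6% on the normal diet.

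Core 1 synthesis depends on C1galt1 and on C1galt1c1 (Cosmc), the chaperone that C1galt1 needs to fold. C1galt1 (chr6:7844842-7875687, plus strand) had 41.2, 66.5, 48.9, 43.9 and 69.7 FPKM on the pro-inflammatory diet and 64.4, 61.5, 70.8, 44.5 and 47.5 FPKM on the normal diet. Each diet had a high and a low set of libraries: 2 and 5 were high on the pro-inflammatory diet, and 1, 2 and 3 on the normal diet. The log2 fold change was -0.10 (SE 0.18, adjusted p = 0.767). Without pro-inflammatory diet libraries 2 and 5 it was -0.34, with an adjusted limma p of 0.320 and an unadjusted one of 0.0481. Without normal diet libraries 1, 2 and 3 it was 0.19, so its direction was set by which libraries entered.

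C1galt1c1 (chrX:38630785-38635087, minus strand) had 30.8, 50.2, 34.0, 30.7 and 59.0 FPKM on the pro-inflammatory diet and 41.1, 41.8, 41.4, 27.9 and 32.9 FPKM on the normal diet. The same libraries were high in each diet as for C1galt1, but here both of the pro-inflammatory pair exceeded every normal diet library. Its log2 fold change was 0.11 (SE 0.20, adjusted p = 0.788), and -0.20 without that pair.

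The enzyme and its chaperone were compared within each library, since a ratio does not depend on the library's total. The log2 ratio of C1galt1 to C1galt1c1 was 0.41, 0.40, 0.51, 0.50 and 0.24 in pro-inflammatory diet libraries 1 to 5. In normal diet libraries 1 to 5 it was 0.63, 0.55, 0.76, 0.66 and 0.52. Every pro-inflammatory library lay below every normal library, although the nearest values, 0.513 and 0.515, almost touched. The mean was 0.41 ± 0.11 against 0.62 ± 0.10 (SD, n = 5 each), a difference of -0.21 (two-sided exact permutation p = 0.00794, the smallest that 5 against 5 libraries allow). Adjusted over the 7 ratios compared, p was 0.0556 in the exact test. A single ratio at the smallest exact p cannot get below 0.0556 in this adjustment. The threshold of 0.05 was thus out of reach for 1 ratio alone, and the adjusted p does not decide the question. Leaving out normal diet libraries 1, 2 and 3 gave -0.17 (exact p = 0.0952), and leaving out pro-inflammatory diet libraries 2 and 5 gave -0.15 (exact p = 0.0357). Each is the smallest exact p that the libraries left allow, so the first of these tests could not reach 0.05.

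B3gnt6, the core 3 enzyme, had the widest range of the 9 genes tested. B3gnt6 (chr7:98192417-98199481, minus strand) had 0.810, 23.5, 3.54, 0.587 and 26.0 FPKM on the pro-inflammatory diet and 9.32, 1.51, 10.2, 0.359 and 0.864 FPKM on the normal diet. The highest library was 72.5 times the lowest, and both diets held libraries under 1 FPKM. These values rest on 15 to 981 reads. The log2 fold change was 0.71 (SE 0.96, adjusted p = 0.700) with an interval of -1.41 to 2.83, and -0.67 without libraries 2 and 5 of the pro-inflammatory diet.

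Gcnt3, which branches core 1 and core 3 chains, separated the pair of libraries more sharply. Gcnt3 (chr9:70031496-70038088, minus strand) had 21.5, 96.7, 17.9, 20.03 and 92.8 FPKM on the pro-inflammatory diet, against 23.8, 21.2, 31.3, 17.4 and 19.2 FPKM on the normal diet. Libraries 2 and 5 were at least 2.96 times the highest of the other 8, and the remaining 3 lay among the normal libraries. Its log2 fold change of 0.73 (SE 0.49, adjusted p = 0.438) became -0.16 without that pair.

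St6galnac1, which puts sialic acid directly on the first GalNAc, was barely detected. St6galnac1 (chr11:116765025-116775507, minus strand) had 2, 1, 0, 1 and 2 reads in the pro-inflammatory libraries and 1, 1, 0, 0 and 2 reads in the normal libraries. That is 6 reads against 4 in all, and each library was below the 0.0683 to 0.0800 FPKM that 3 reads would give. A difference between the diets was not detectable at this depth, and the gene did not pass the filter for testing.

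St3gal4, which adds sialic acid to galactose, had high values where most of the other genes had low ones. B4galnt2 was an exception only over the 8 libraries without pro-inflammatory libraries 2 and 5 (Pearson's r = 0.046). Over all 10 libraries its r with St3gal4 was -0.49. St3gal4 (chr9:35046576-35119268, minus strand) had 31.2, 13.4, 23.8, 28.7 and 19.6 FPKM on the pro-inflammatory diet and 21.1, 17.0, 14.2, 26.8 and 27.2 FPKM on the normal diet. Pro-inflammatory libraries 2 and 5 were the lowest of their diet, and normal libraries 1, 2 and 3 were below 4 and 5. The log2 fold change was 0.11 (SE 0.24, adjusted p = 0.819), and 0.41 without the pro-inflammatory pair (adjusted p = 0.362). A plus-strand transcript in GENCODE, 4930581F22Rik, overlaps the gene, and use of the strand in counting is not known from the labels.

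Fut2 adds the terminal fucose of the H antigen, a sugar that gut bacteria use. Fut2 (chr7:45648591-45666394, minus strand) had 54.1, 115, 65.9, 47.1 and 84.2 FPKM on the pro-inflammatory diet and 53.5, 61.7, 71.6, 48.9 and 49.9 FPKM on the normal diet. Both of the pro-inflammatory pair were above the other 8, library 5 by a factor of 1.18 over the highest of them. The log2 fold change of 0.30 (SE 0.22, adjusted p = 0.480) was -0.034 without the pair.

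B4galnt2 makes the Sda antigen by adding GalNAc to a sialylated chain end. B4galnt2 (chr11:95865943-95914891, minus strand) had 72.2, 348, 76.8, 51.2 and 283 FPKM on the pro-inflammatory diet, against 76.4, 50.5, 75.9, 79.4 and 70.1 FPKM on the normal diet. Libraries 2 and 5 were at least 3.56 times the highest of the other 8, which spanned 50.5 to 79.4 FPKM. Its log2 fold change was 0.82 (SE 0.50, interval -0.30 to 1.93, adjusted p = 0.399), and -0.080 without the pair. An antisense gene, Gm11534, overlaps the locus on the plus strand.

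**Figure D1:**
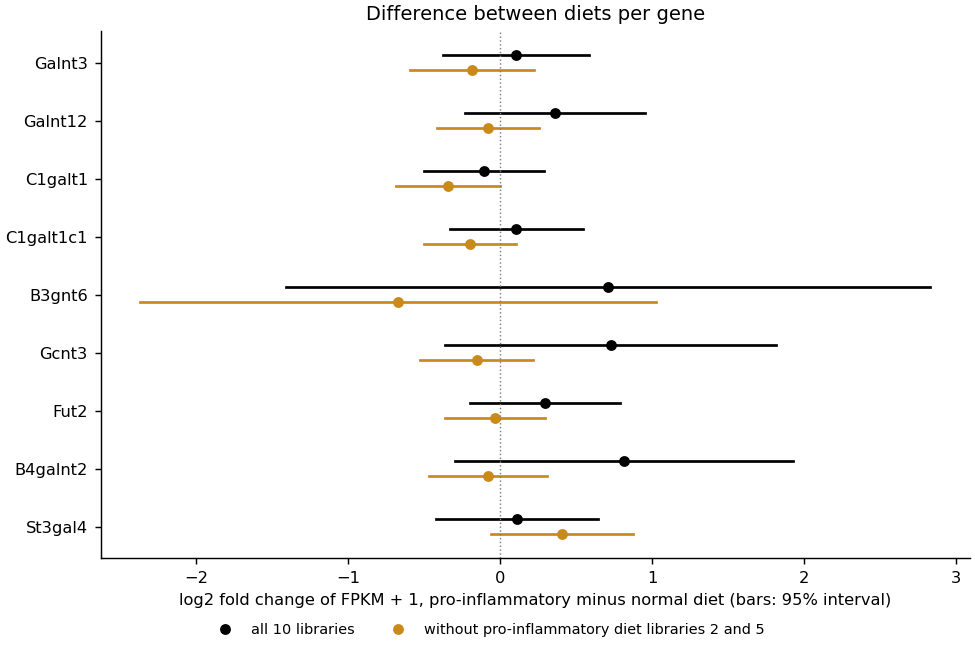
Log2 fold change of FPKM + 1 (pro-inflammatory minus normal diet) with its 95% interval from limma, for all 10 libraries (black) and without pro-inflammatory diet libraries 2 and 5 (gold). Of the 9 genes, 7 change sign, among them B4galnt2, at 0.82 with all libraries and -0.080 without the pair.

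Over the 9 genes tested, 8 had a positive log2 fold change (88.9%, against 47.1% of all genes) and 1 a negative one. Their median was 0.30, against -0.013 over all 12345 genes tested. Without the pair of libraries that median was -0.16. At an adjusted p under 0.05, 0 of the 9 passed, as did 0% of all genes in each direction. At an unadjusted p below 0.05, 0 of the 9 passed. Of all genes, 8.16% were above and 9.25% below the normal diet at that level. The diets did not overlap for 0 of the 9, against 1.77% of all genes in the positive and 2.07% in the negative direction. By voom on the recovered reads, 0 of the 9 passed too. Exact permutation p values per gene ran from 0.286 to 0.675.

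Pro-inflammatory libraries 2 and 5 were both above the other 8 for 7 of the 9 genes and both below for 0. Over all genes tested these shares were 13.9% and 17.4%. On the normal diet, libraries 1, 2 and 3 each lay above 4 and 5 for 7 of the 9 genes, with B4galnt2 and St3gal4 as the exceptions, against 14.6% of all genes. The summed proximal colon markers were 1024 and 1011 FPKM in the pro-inflammatory pair, against 338 to 543 FPKM over the normal diet, and the distal markers were 5.86 and 32.3 against 261 to 403 FPKM. Of the 4 proximal markers, Cyp2c55, Fabp2 and Mep1a were higher in the pair than in the other 8, while Hao2 was at 81.4 and 86.2 FPKM in the pair, against 135 to 204 FPKM. Each of the 5 distal markers was lower in the pair than in the other 8. Hoxd13 was under 1 FPKM in both libraries of the pair, and Hoxd12 was at 0 and 0.0744 FPKM, against 0.64 to 2.75 FPKM. The part of colon position in the values of the 9 genes was not tested.

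**Figure D2:**
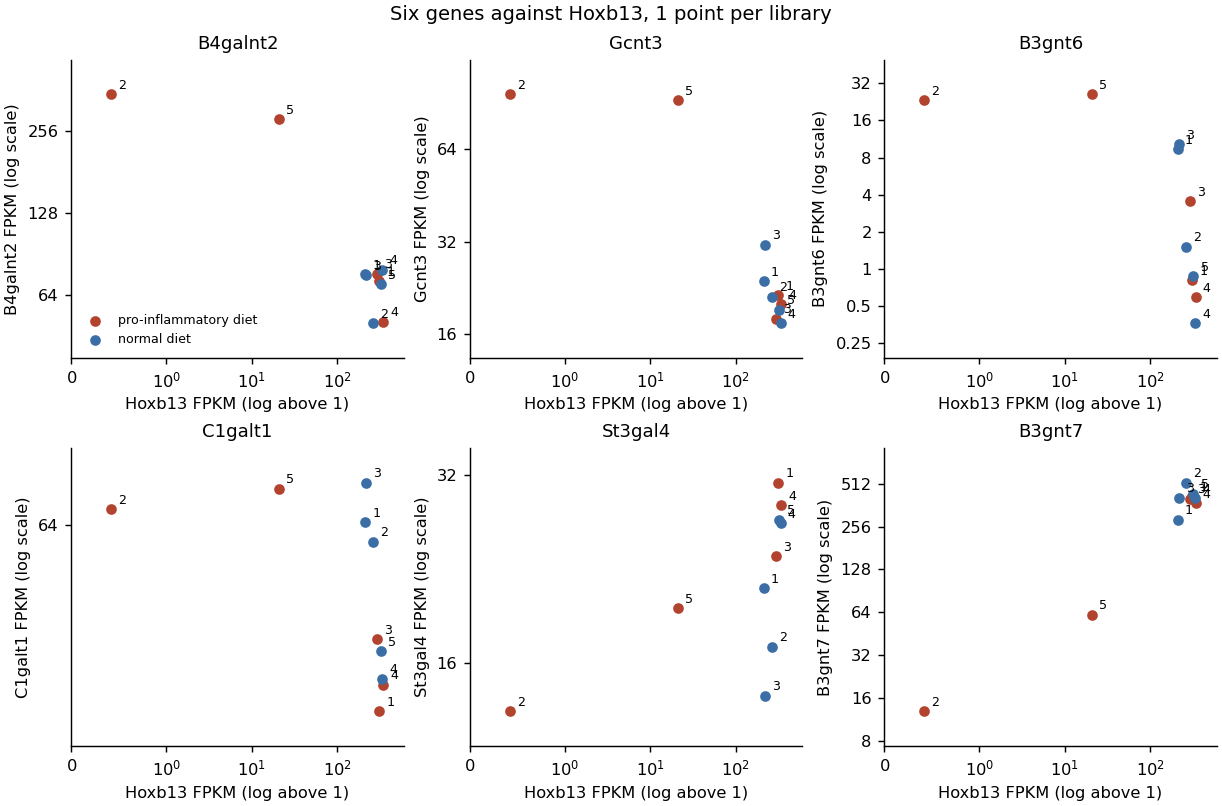
FPKM (log scale) of 5 of the listed genes and of B3gnt7 against FPKM of Hoxb13 (log scale above 1, linear below), 1 numbered point per library, with the pro-inflammatory diet in red and the normal diet in blue. Libraries 2 and 5 of the pro-inflammatory diet lie at 0.417 and 20.9 FPKM of Hoxb13, at the top for B4galnt2, Gcnt3 and B3gnt6, and at the bottom for B3gnt7.

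The other 6 ratios within a library asked whether the balance of pathway steps differed between diets. The core 3 to core 1 ratio, B3gnt6 to C1galt1, had log2 values of -4.54, -1.46, -3.46, -4.82 and -1.39 on the pro-inflammatory diet. On the normal diet they were -2.66, -4.64, -2.67, -5.07 and -4.70. Pro-inflammatory libraries 2 and 5 had the values nearest to 0, and the diets otherwise overlapped (difference 0.81, exact permutation p = 0.397). Without that pair the difference was -0.33.

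Galnt12 to Galnt3, the balance of initiating enzymes, averaged 1.001 ± 0.22 on the pro-inflammatory and 0.75 ± 0.17 on the normal diet (log2, SD, n = 5 each). The difference of 0.26 did not pass (exact permutation p = 0.0794, adjusted over 7 ratios 0.278), and it was 0.31 without normal diet library 1 (exact p = 0.0317) and 0.11 without pro-inflammatory libraries 2 and 5 (exact p = 0.357). B4galnt2 to Fut2 averaged 0.81 ± 0.78 against 0.29 ± 0.39, with the pro-inflammatory pair at 1.59 and 1.74 and the other 8 at most at 0.69 (exact permutation p = 0.262), and the difference was -0.046 without the pair. Fut2 to St3gal4, terminal fucose to sialic acid, averaged 1.59 ± 0.96 against 1.41 ± 0.61 (exact p = 0.738), a difference of 0.18, and of -0.44 without the pair. Gcnt3 to B3gnt6 averaged 2.64 ± 0.95 against 2.63 ± 1.15 (exact p = 1), a difference of 0.018, and of 0.52 without the pair (exact p = 0.464). St6galnac1 to C1galt1 rests on at most 2 reads of St6galnac1 per library and says nothing of that balance (difference 0.12, exact p = 0.571, and 0.35 without the pair).

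**Figure D3:**
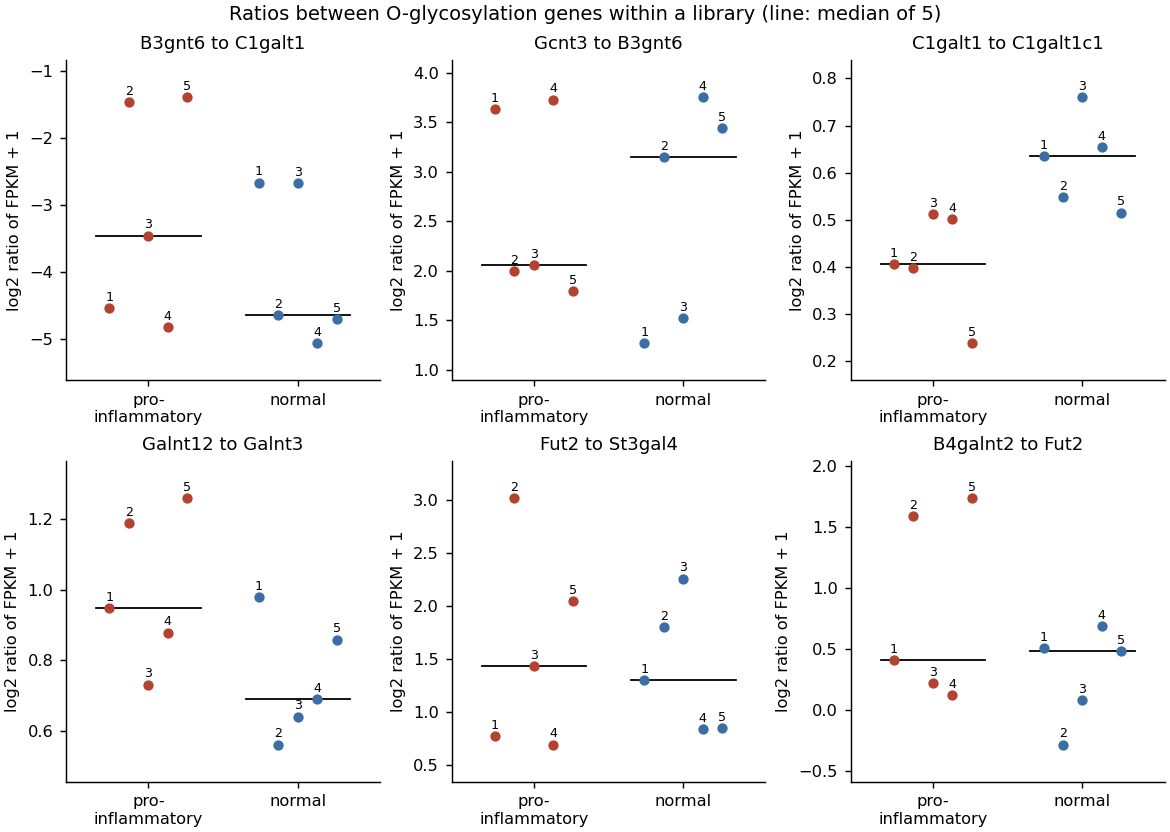
Log2 ratios of FPKM + 1 between listed genes within a library for 6 of the 7 ratios, 1 numbered point per library, with the pro-inflammatory diet on the left, the normal diet on the right and a line at the median of 5. The diets do not overlap for C1galt1 to C1galt1c1, where the pro-inflammatory libraries reach 0.513 and the normal libraries start at 0.515.

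To see how these genes varied together without the pair that stood apart, correlations were taken over the other 8 libraries on log2(FPKM + 1). Of 36 pairs of genes, 28 had a positive and 8 a negative Pearson's r, and 7 of the negative ones involved St3gal4. St3gal4 against C1galt1 had r = -0.944 (permutation p = 0.00065, adjusted 0.0078) and Spearman's rho = -0.952 (permutation p = 0.00124, adjusted 0.0223), with r = -0.98 without the 2 libraries farthest from the median. St3gal4 against Galnt3 had r = -0.935 (permutation p = 0.00059, adjusted 0.0078) and rho = -0.952 (permutation p = 0.00118, adjusted 0.0223), with r = -0.85 without the farthest 2. These 2 pairs passed by both measures after adjustment over 36.

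Another 5 pairs passed by Pearson's r alone. Galnt12 and B3gnt6 had r = 0.968 (permutation p adjusted 0.0078) and rho = 0.905 (adjusted 0.0560), and r = 0.93 without the farthest 2 libraries. C1galt1 and its chaperone C1galt1c1 had r = 0.938 (permutation p adjusted 0.0233) and rho = 0.833 (adjusted 0.0803), and r = 0.92 without the farthest 2. B4galnt2 did not follow the others over these 8 libraries, with r from -0.13 to 0.37. Normal diet libraries 1, 2 and 3 form 1 end of most of these relations, and fewer than the 6 libraries set as the minimum for a correlation remain without them.

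**Figure D4:**
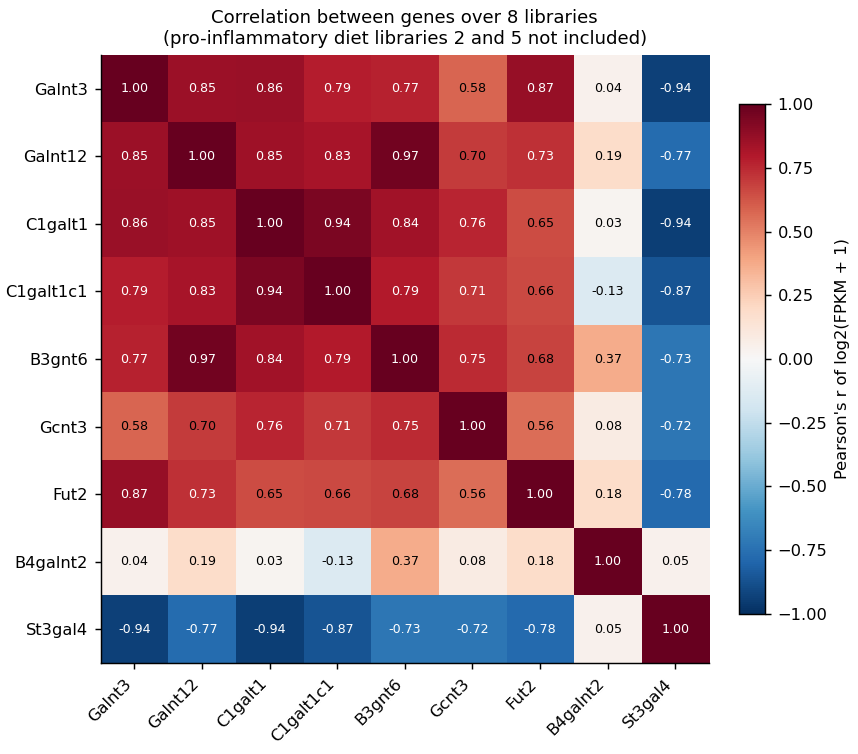
Pearson's r of log2(FPKM + 1) between the 9 genes tested over 8 libraries, without pro-inflammatory diet libraries 2 and 5, on a colour scale of -1 to 1. St3gal4 is negative with all but B4galnt2, and B4galnt2 lies between -0.13 and 0.37 throughout.

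The genes most alike to each member were those with the highest Pearson's r over the 10 libraries among 12336 other tested genes, given as a description since pro-inflammatory libraries 2 and 5 shape these values. Gcnt3 was most like Pcsk5 (r = 0.989) and Car8 (0.989), and B4galnt2 most like Gm45871 (0.990) and Sct (0.989). Over the 8 libraries without the pair these values were 0.870, 0.838, 0.858 and 0.845. Galnt12 was most like 1810065E05Rik (0.993) and Acsf2 (0.991), and B3gnt6 most like Golm2 and Tspan13 (0.979 each). C1galt1 was closest to Tsc22d1 (0.975) and Slc30a4 (0.964), C1galt1c1 to Inpp1 (0.984) and Pcsk7 (0.980), and Galnt3 to Dcbld1 (0.962) and Pde2a (0.955). Fut2 was closest to Kcnk6 (0.968) and Orai2 (0.961), and St3gal4 to Rev1 (0.972) and Prr15 (0.954). Over the 8 libraries the likeness was 0.968 and 0.958 for St3gal4, 0.973 and 0.961 for C1galt1, 0.958 and 0.963 for Galnt12, 0.957 and 0.956 for B3gnt6, and 0.959 and 0.946 for C1galt1c1. For Fut2 it was 0.920 and 0.820, and for Galnt3 0.936 and 0.927.

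Beyond the 10 genes, 71 others of the pathway were listed, 70 were in the table and 60 were tested. Of these, 26 had a positive log2 fold change (43.3%, against 47.1% of all genes) and 34 a negative one. Their median was -0.045, against -0.013 over all genes. None passed the adjusted threshold, while an unadjusted p below 0.05 was reached by 7 in the positive direction (11.7% of the 60, against 8.16% of all genes) and 4 in the negative (6.67%, against 9.25%). Pro-inflammatory libraries 2 and 5 were both above the other 8 for 14 of the 60 (23.3%, against 13.9% of all genes). They were both below for 20 (33.3%, against 17.4%). The 17 genes of sugar donor synthesis and transport had 12 positive and 5 negative values (median 0.046). The 10 of sialylation had 1 positive and 9 negative (median -0.19). Those are 70.6% and 10% positive, against 47.1% of all genes. Without pro-inflammatory libraries 2 and 5 the medians were 0.067 and -0.13. For sialylation, that pair was below the other 8 for 5 of the 10 genes and above for 1. Among the remaining lists, 5 of 11 other initiating transferases and 5 of 10 core and extension genes were positive. So were 2 of 5 sulfation genes, 1 of 5 mucin core proteins and 0 of 2 fucose and ABO genes.

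Galnt6, another initiating transferase, had 21.1, 32.9, 22.4, 23.4 and 35.1 FPKM on the pro-inflammatory diet and 17.0, 18.4, 20.7, 20.4 and 20.9 FPKM on the normal diet. It was the 1 gene of the 60 whose diets did not overlap, with the lowest pro-inflammatory library at 21.1 and the highest normal library at 20.9 FPKM (log2 fold change 0.42, SE 0.14, limma adjusted p = 0.197). That is 1.67% of the 60, close to the 1.77% over all genes tested. Without libraries 2 and 5 its log2 fold change was 0.19.

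The smallest unadjusted p of the 60 was that of Slc35b2, a transporter of the sulfate donor, at 18.7 ± 2.01 against 14.9 ± 0.999 FPKM (SD, n = 5 each; limma adjusted p = 0.173). Papss2, which makes that sulfate donor, averaged 96.4 ± 23.5 FPKM on the pro-inflammatory and 73.1 ± 4.80 FPKM on the normal diet. Of the enzymes of GDP-fucose supply, Fcsk averaged 10.6 ± 1.25 against 8.32 ± 0.960 FPKM, Gmds 164 ± 42.9 against 118 ± 7.83 FPKM, and Gfus 72.7 ± 9.38 against 61.4 ± 3.64 FPKM. Fpgt, which acts after Fcsk, averaged 14.3 ± 1.40 against 15.4 ± 2.02 FPKM. Gnpnat1 of hexosamine synthesis averaged 24.02 ± 3.57 against 20.5 ± 1.83 FPKM. Without pro-inflammatory libraries 2 and 5, the log2 fold change was 0.22 for Slc35b2, 0.28 for Fcsk, 0.17 for Gmds, 0.12 for Gfus, 0.12 for Papss2 and 0.067 for Gnpnat1.

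Among genes with negative values, Gne, which starts sialic acid synthesis, averaged 90.0 ± 13.2 FPKM on the pro-inflammatory and 112 ± 16.3 FPKM on the normal diet. Chst4, a sulfotransferase of N-acetylglucosamine, averaged 40.1 ± 7.71 against 57.4 ± 18.9 FPKM, B3galt5 84.3 ± 7.31 against 97.4 ± 11.4 FPKM, and Galnt16 1.19 ± 0.138 against 1.58 ± 0.298 FPKM. Without the pair their log2 fold changes were -0.17 for Gne, -0.36 for Chst4, -0.14 for B3galt5 and -0.19 for Galnt16. The adjusted limma p of the pathway genes named by this measure ran from 0.173 to 0.306.

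B3gnt7, singled out after its values were seen, was the reverse of Gcnt3 and B4galnt2. This enzyme, which extends keratan sulfate chains, had 418, 12.8, 401, 373 and 61.3 FPKM on the pro-inflammatory diet, against 285, 522, 408, 404 and 437 FPKM on the normal diet. Pro-inflammatory libraries 2 and 5 were far below the other 8, and the log2 fold change of -1.53 became -0.023 without them. Muc2 itself had 373, 1867, 489, 307 and 1536 FPKM against 813, 590, 1084, 381 and 415 FPKM, high in the same libraries as C1galt1 and Galnt12 in each diet. Its log2 fold change was 0.19 (limma adjusted p = 0.862), and -0.66 without pro-inflammatory libraries 2 and 5.

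Marker genes of other cell types also varied between the libraries, and their summed levels overlapped between diets for muscle and leukocytes. Of 10 smooth muscle genes, 10 had negative log2 fold changes, with summed levels of 2504 to 3429 FPKM on the pro-inflammatory and 2884 to 4246 FPKM on the normal diet. Of 8 leukocyte genes, 8 had positive ones, at 230 to 407 against 193 to 313 FPKM. Over all genes tested, 47.1% had a positive log2 fold change. Absorptive colonocyte genes summed to 5977 and 5562 FPKM in pro-inflammatory libraries 2 and 5, against 2076 to 2609 FPKM on the normal diet. Car1 made up most of that sum in library 2, at 3568 FPKM, and was at 2334 FPKM in library 5. Krt20 was at 644 and 680 FPKM in the pair, against at most 278 FPKM in the other 8. Guca2a was at 1270 and 1740 FPKM, against at most 946 FPKM, and Slc9a3 at 41.9 and 67.6 FPKM, against at most 36.9 FPKM. Ceacam20 lay among the other 8. Slc26a3 (59.5 and 146 FPKM in the pair, against 204 to 510 in the other 8) and Aqp8 (47.7 and 111 FPKM, against 170 to 292) lay below the other 8, as did Car4. The part of these cell types in the values of the O-glycosylation genes was not tested.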

How the data were processed

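Per the labels' protocols, total RNA of intact quality was made into stranded mRNA libraries for paired-end Illumina sequencing. The authors deposited 1 table of FPKM per gene symbol and library. Per the submitters' processing notes, the tools were Bowtie2, Cufflinks, DESeq, HISAT2, HTSeq, StringTie and Trimmomatic, on mm10, with no roles stated. Whether counting used strand: not given in the sources used here. FPKM divides by each library's total, so very abundant genes lower the rest.

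All FPKM values were whole multiples of 1 read within 0.001 read for 18398 of 18398 genes, which gave the reads used for depth, floors and voom. The 12345 genes averaging at least 1 FPKM entered a limma 3.58.1 fit of log2(FPKM + 1) (eBayes, trend; R 4.3.3) with Benjamini-Hochberg adjustment at 0.05. Fold changes on this scale understate low genes. Ratios and single genes had two-sided exact permutation tests over all splits into 5 and 5. Correlations used 100000 permutations. They were planned over 10 libraries and 45 pairs, but pro-inflammatory diet libraries 2 and 5 form a cluster, so 8 libraries and the 36 pairs of the 9 tested genes were used. The fits and the read recovery were tested on simulated data. Coordinates are from GENCODE M21 (GRCm38), 1-based.

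Named genes are the 10 members, the 12 pathway genes with the smallest unadjusted p (1 of them is not reported here), the 2 genes most alike to each member, and defining markers. B3gnt7, Dbp, Fpgt and the markers Hoxd13, Hoxd12, Fabp2, Mep1a, Hao2, Retnlb, Car1, Car4, Krt20, Guca2a, Slc9a3 and Ceacam20 were singled out after their values were seen. Members and lists were chosen with earlier results of these data known. Alternatives changed the pseudocount (0.1, 0.5), filter, scaling, variance model, covariates, a replicate block and the libraries used.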

Additional observations from a re-analysis of the deposited data

Results flagged for a closer look

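B4galnt2 in normal diet library 2 stood away from the other 4 normal diet libraries, at 5.69 on the log2(FPKM + 1) scale, or 50.5 FPKM. Its gap to the nearest library was 0.725 of the group's range, above the critical 0.71 for 5 values. This was 1 of 32 groups examined, and chance flags about 1 in 20.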

How the results depend on the processing

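The count of listed genes passing the adjusted threshold was 0 in each of the 26 alternatives. Over all genes it was 1 with a goblet cell or a distal colon covariate and 0 otherwise. Without pro-inflammatory diet libraries 2 and 5, log2 fold changes turned for Galnt3 (-0.19), Galnt12 (-0.080), C1galt1c1 (-0.20), B3gnt6 (-0.67), Gcnt3 (-0.16), Fut2 (-0.034) and B4galnt2 (-0.080), and so did the log2 ratios B3gnt6 to C1galt1 (-0.33), Fut2 to St3gal4 (-0.44) and B4galnt2 to Fut2 (-0.046). With the distal colon covariate the same 7 genes were at -0.21, -0.081, -0.18, -0.74, -0.10, -0.062 and -0.024. The summed distal markers were 5.86 and 32.3 FPKM in that pair, against 261 to 420 FPKM in the other 8 libraries. This fit is thus no check separate from leaving the pair out. Array weights turned Galnt3 (-0.13), C1galt1c1 (-0.13) and B3gnt6 (-0.51), and the muscle minus epithelium covariate Galnt3 (-0.064). Without normal diet libraries 1, 2 and 3, C1galt1 (0.19), St3gal4 (-0.26), Gcnt3 to B3gnt6 (-0.95) and St6galnac1 to C1galt1 (-0.19) turned. C1galt1 to C1galt1c1 (-0.17) was then not called unadjusted. Its exact p of 0.0952 is the smallest that these libraries allow, so no call was possible there. With fewer libraries the smallest exact p is larger. Leaving out both sets, chosen after seeing the data, turned B4galnt2 (-0.18). A pseudocount of 0.1 turned Gcnt3 to B3gnt6 (-0.13). Leaving out each library in turn gave -0.031 to 0.24 for Galnt3, -0.036 to 0.19 for C1galt1c1, -0.014 to 0.29 for St3gal4, and for the ratios -0.32 to 0.30 for Gcnt3 to B3gnt6, -0.17 to 0.41 for Fut2 to St3gal4 and 0.19 to 0.32 for Galnt12 to Galnt3, which passed unadjusted without normal diet library 1 (0.31). Beyond these constructions, the cause was not tested. The replicate numbers did not pair the libraries (correlations of deviations from -0.263 to 0.061), and the replicate block also called 0 listed genes. Depth limits St6galnac1 and the low values of B3gnt6, where reads per library were 0 to 2 and as few as 15. Floors cover counting error only.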
